A study of Mus musculus with 8 samples.

Results

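The genes that set SREBP2 activity and move cholesterol within the cell were followed in mouse liver with and without the splicing regulator Rbfox2. They were chosen by symbol, as Srebf2, Scap, Insig1, Insig2, Stard4, Npc1, Npc2 and Soat2, and all 8 were found among the 46078 genes of the count table. SREBP2, the product of Srebf2, is made as an inactive precursor in the membrane of the endoplasmic reticulum (ER). When ER cholesterol is low, the escort protein SCAP carries it to the Golgi, where proteases release a fragment that enters the nucleus and switches on genes for sterol synthesis and uptake. When sterols are plentiful, the INSIG proteins hold SCAP in the ER. Cholesterol taken up with lipoproteins leaves the lysosome through NPC2 and NPC1, is carried between membranes by proteins such as STARD4, and is esterified for storage or secretion by SOAT2. Levels of mRNA do not show how much SREBP2 is cleaved.

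RNA-seq was carried out on poly(A)-selected RNA from livers of fasted mice, as 5 wild-type (WT) samples and 3 with deletion of Rbfox2 in hepatocytes (Rbfox2 KO). Mice of both groups carried Rbfox2 LoxP/LoxP alleles, and Rbfox2 KO mice also carried Cre recombinase driven by the albumin promoter. The study used this Cre to delete the gene selectively in hepatocytes. All drank water with fructose at 30% (w/v) for 22 weeks, starting at 8 weeks of age, and C57BL6/J was the only background strain named in the methods. Male mice were used in the study unless it stated otherwise, and the labels give no sex. Each sample is numbered as in its label. The comparison asks whether transcripts that govern sterol sensing and intracellular cholesterol traffic differ when hepatocytes lack Rbfox2 on a lipogenic diet.

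Total counts ran from 24829693 to 37823155 per library, and the 8 genes had between 374 and 7575 counts in every library. Rbfox2 was at 14.0 to 23.2 CPM (counts scaled by library size with trimmed mean of M-values, TMM, factors) in WT and at 6.84 to 12.4 CPM in Rbfox2 KO livers. The hepatocyte markers Alb, Ttr, Apoa1, Hnf4a, Cyp3a11 and Cps1 summed to 67863 to 75153 CPM in WT and to 65457 to 74740 CPM in Rbfox2 KO. Most of each sum was Alb, with means of 56690 CPM in WT and 56454 CPM in Rbfox2 KO. Rbfox2 KO 1 stood apart from the other libraries. Its 12 pancreatic exocrine markers summed to 474 CPM, against 17.2 CPM in WT 1 and 4.78 to 5.90 CPM in the other 6 samples. In whole liver, fewer cells of a type and less RNA per cell cannot be told apart.

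None of the 8 genes differed between genotypes past the threshold. By edgeR, 0 of 8 passed an adjusted p of 0.05, and the share of all 14654 tested genes that passed was also 0%. The deleted gene itself, Rbfox2, did not pass, with a log2 fold change of -1.03 ± 0.21 (SE; edgeR adjusted p = 0.328). The edgeR adjusted p of each of the 8 genes was 0.99997. At an unadjusted p under 0.05 there were 0 of 8 in either direction, against backgrounds of 2.33% of tested genes lower and 2.41% higher in Rbfox2 KO. DESeq2 called 0 of 8 past its adjusted threshold, where it called 57 of 15360 genes (0.371%), and 0 of 8 at an unadjusted p under 0.05. In none of the 8 genes did every Rbfox2 KO sample lie below every WT sample, an order held by 1.82% of tested genes, or above, as in 1.89%. Log2 fold changes were below 0 for Srebf2, Scap, Insig1 and Stard4 and above 0 for Insig2, Npc1, Npc2 and Soat2, with a median of -0.0022 against 0.00095 over all tested genes. The genes differed in how far they stood from 0: those of Insig1, Stard4 and Srebf2 lay between -0.61 and -0.41, and the other 5 between -0.02 and 0.09.

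**Figure D1:**
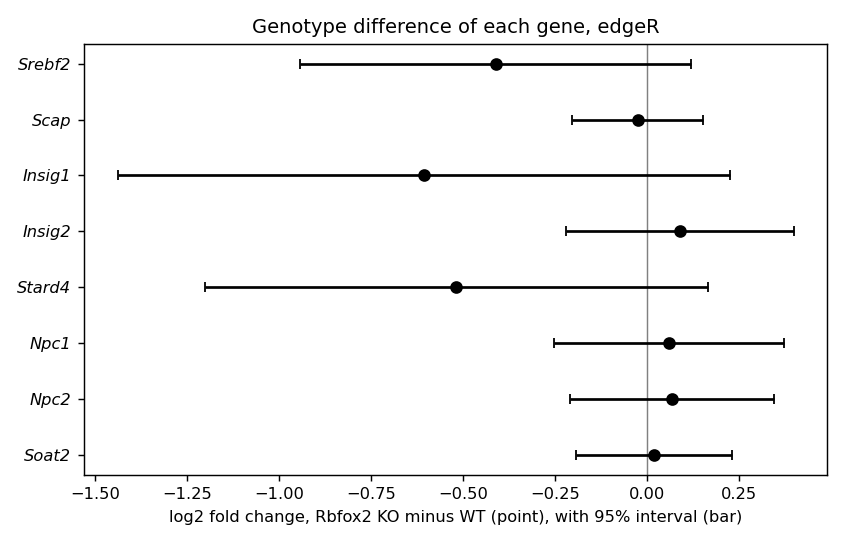
Log2 fold change of each gene in Rbfox2 KO against WT livers by edgeR (points), with 95% intervals (bars), on the horizontal axis. Insig1, Stard4 and Srebf2 have the lowest estimates and the widest intervals, and all 8 intervals include 0.

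Levels were compared between genes as CPM per kilobase of exon. The length used joins all annotated exons of a gene, and was 5438 bases for Npc2 and 11317 for Npc1. It can exceed the length of the transcripts present, which was not measured. The order between genes and the size of ratios between them therefore depend on the annotation. In WT livers the order of means ran from Insig2, at 53.9 ± 9.05 CPM per kilobase (SD, n = 5), through Insig1, at 31.9 ± 8.46, to Soat2, at 11.7 ± 0.819. Npc2 followed at 10.9 ± 1.15 CPM per kilobase, Stard4 at 8.44 ± 2.05 and Scap at 8.24 ± 0.345. Npc1, at 4.78 ± 0.759 CPM per kilobase, and Srebf2, at 3.10 ± 0.829, were lowest. Insig2 lay above Insig1, Insig1 above Soat2 and Scap above Npc1 without overlap of the WT ranges, whereas the ranges of Soat2 and Npc2, Npc2 and Stard4, Stard4 and Scap, and Npc1 and Srebf2 overlapped. In Rbfox2 KO livers Insig2 was again highest, at 57.4 ± 2.40 CPM per kilobase (SD, n = 3), and Srebf2 lowest, at 2.34 ± 0.635. Transcripts for the membrane anchors that retain SCAP were thus more abundant per length than those for SCAP itself, and SCAP transcripts more abundant than those for SREBP2, in all 8 livers.

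**Figure D2:**
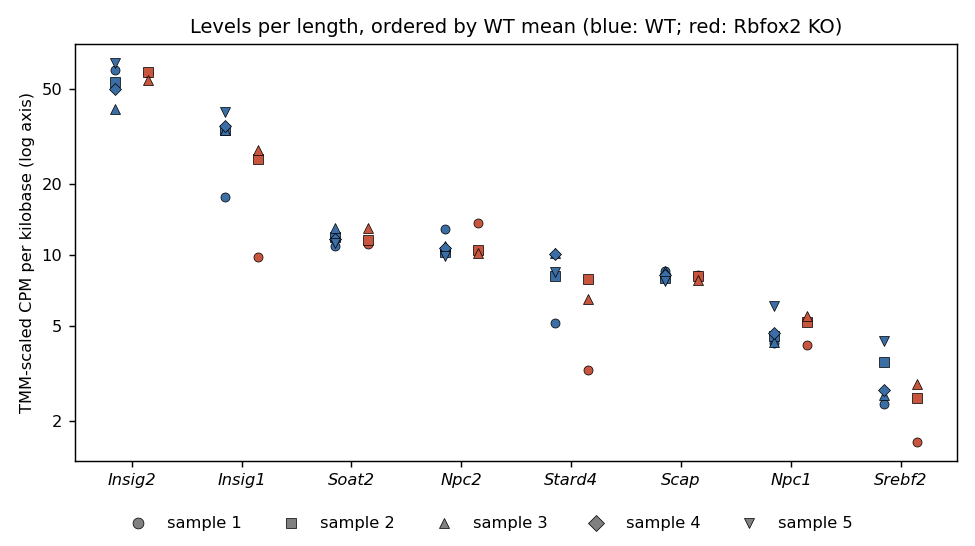
TMM-scaled CPM per kilobase of exon (log axis) of the 8 genes, ordered by their WT mean, with one symbol per liver (blue, WT; red, Rbfox2 KO). Insig2 is highest and Srebf2 lowest in both groups, and sample 1 of each group lies lowest of its group for Srebf2, Insig1, Stard4, Npc1 and Soat2.

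Srebf2 encodes SREBP2 itself (ENSMUSG00000022463, GRCm38 chromosome 15 from 82147181 to 82205379, plus strand). It was at 17.0, 25.5, 18.5, 19.3 and 31.2 CPM in WT 1 to 5, and at 11.7, 18.0 and 20.6 CPM in Rbfox2 KO 1 to 3. The lowest value belonged to Rbfox2 KO 1 and the highest to WT 5, and the 2 other Rbfox2 KO samples lay within the WT range. The means were 22.3 ± 5.96 CPM (SD, n = 5) and 16.8 ± 4.56 CPM (SD, n = 3), so that Rbfox2 KO averaged 75.3% of WT. The log2 fold change was -0.41 ± 0.24 (SE), with a 95% interval from 52.0% to 109% of WT, an unadjusted edgeR p of 0.116 and an exact permutation p of 0.25 (two-sided, on the CPM means). The log2 fold change was -0.21 without Rbfox2 KO 1, -0.26 without WT 5 and -0.50 without WT 1. Mir33, a microRNA gene hosted within Srebf2, shares 0 exonic bases with it and had 0 counts. SREBP2 is known to act on its own gene, and the promoter is shown for that reason. It is the RefSeq sequence of GRCm38.p6, from 250 bases before to 50 after the start site, at chr15:82147019-82147318 on the plus strand, with motif matches of either strand in capitals.
Srebf2: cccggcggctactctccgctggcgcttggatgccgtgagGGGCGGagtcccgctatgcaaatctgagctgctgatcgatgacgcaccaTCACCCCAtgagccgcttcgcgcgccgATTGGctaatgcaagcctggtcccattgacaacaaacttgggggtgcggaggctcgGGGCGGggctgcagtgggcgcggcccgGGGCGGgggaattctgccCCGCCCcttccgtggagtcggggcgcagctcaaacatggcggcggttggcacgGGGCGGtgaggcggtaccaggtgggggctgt
The letters TCACCCCA, a shortened core of the sterol regulatory element that SREBP binds, began 162 bases before the start site. An inverted CCAAT box (ATTGG), bound by NF-Y, began 135 bases before it, and matches to GGGCGG or its complement CCGCCC, the Sp1 box, began at 211, 79, 52 and 34 bases before it and at base 20 of the transcript. The shortened core TCACNCCA, which the longer core TCACNCCAC contains, was chosen after the sequences were seen, and 4.36% of 32851 promoter windows of this length held it on either strand. The longer core was in 1.24% of windows, CCAAT in 37.4% and GGGCGG in 35.7%. Of the 8 genes, 5 had a window in the table, with 8 windows in all, and none of these held the longer core.

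Scap encodes the sterol-sensing escort of SREBP (ENSMUSG00000032485, chromosome 9 from 110333288 to 110384950, plus strand). It was the most even of the 8 genes, at 63.6, 59.8, 63.9, 61.6 and 57.8 CPM in WT 1 to 5 and at 61.3, 61.0 and 58.6 CPM in Rbfox2 KO 1 to 3. All Rbfox2 KO values fell inside the WT range, whose coefficient of variation was 4.18%. Group means were 61.3 ± 2.57 CPM (SD, n = 5) and 60.3 ± 1.46 CPM (SD, n = 3). The estimated log2 difference of -0.02 ± 0.08 (SE) had an interval from 86.9% to 111% of WT (exact permutation p = 0.554, two-sided). Scaling by library totals, which moved the median of all genes to 0.12, gave 0.10 in place of -0.02. Exons of 5830462I19Rik on the opposite strand share 985 bases with Scap, 13.2% of its exonic length, but that gene had 28 counts over all samples.

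Insig1 and Insig2 encode the retention proteins of SCAP, and the former is itself switched on by SREBP. Insig1 (ENSMUSG00000045294, chromosome 5 from 28071363 to 28078662, plus strand) was at 54.3, 104, 104, 108 and 124 CPM in WT 1 to 5. In Rbfox2 KO 1 to 3 it was at 30.2, 78.5 and 85.8 CPM. WT 1 stood well below the other WT livers and Rbfox2 KO 1 well below the other Rbfox2 KO livers, and Rbfox2 KO 2 and 3 lay above WT 1 and below WT 2 to 5. The means were 98.7 ± 26.2 CPM (SD, n = 5) and 64.8 ± 30.2 CPM (SD, n = 3), so that Rbfox2 KO averaged 65.7% of WT. The log2 fold change was -0.61 ± 0.36 (SE), over an interval from 36.9% to 117% of WT. With an unadjusted edgeR p of 0.132 and an exact permutation p of 0.161 (two-sided), no difference was established. Of all tested genes, 2.91% had a lower log2 fold change, a position given as description only. Without Rbfox2 KO 1 the log2 fold change was -0.27. With both samples numbered 1 left out, a choice made after the data were seen, it was -0.43, the WT range of 104 to 124 CPM did not overlap the Rbfox2 KO values, and the edgeR p was 0.00443 unadjusted and 0.637 adjusted.

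Insig2 (ENSMUSG00000003721, chromosome 1 from 121304353 to 121332589, minus strand) was at 209.8, 186, 144, 174 and 224 CPM in WT 1 to 5. Rbfox2 KO 1 to 3 had 203, 205 and 189.7 CPM. The Rbfox2 KO values lay close together inside the wider WT range, and both samples numbered 1, low in Insig1, were at 203 CPM or above for Insig2. Means of 187 ± 31.4 CPM (SD, n = 5) and 199 ± 8.33 CPM (SD, n = 3) gave 0.09 ± 0.14 (SE) as the log2 fold change, with an interval from 85.8% to 132% of WT (exact permutation p = 0.607, two-sided). RefSeq gives several start sites for Insig2, and counts per gene do not tell their transcripts apart. The promoters of the pair are shown side by side, since both genes encode SCAP anchors but Insig1 is the one known as an SREBP target, with the most upstream start for Insig2 and capitals for motif matches as above. They lie at chr5:28071162-28071461 on the plus strand and chr1:121332540-121332839 on the minus strand.
Insig1: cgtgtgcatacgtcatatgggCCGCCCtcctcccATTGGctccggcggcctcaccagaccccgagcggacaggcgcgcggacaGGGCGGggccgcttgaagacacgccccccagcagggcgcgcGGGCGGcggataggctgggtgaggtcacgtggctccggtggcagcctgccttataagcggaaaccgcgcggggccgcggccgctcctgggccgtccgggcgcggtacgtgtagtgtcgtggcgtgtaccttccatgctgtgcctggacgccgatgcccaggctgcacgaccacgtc
Insig2: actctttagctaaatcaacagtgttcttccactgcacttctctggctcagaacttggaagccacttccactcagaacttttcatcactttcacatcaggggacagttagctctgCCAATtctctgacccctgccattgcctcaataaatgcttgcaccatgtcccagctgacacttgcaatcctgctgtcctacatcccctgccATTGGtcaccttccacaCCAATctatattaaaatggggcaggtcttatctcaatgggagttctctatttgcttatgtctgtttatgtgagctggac
The Insig1 window held an inverted CCAAT box 216 bases before the start and Sp1 boxes at 229, 167 and 126 bases before it. The Insig2 window held CCAAT boxes at 136, 46 and 29 bases before the start, the middle one inverted, and no Sp1 box. The other 2 Insig2 windows, at downstream starts, each held 1 Sp1 box and no CCAAT box, so the contrast with Insig1 holds for the window shown. None of these windows held the shortened sterol core.

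The ratio of Insig1 to Insig2 within a liver does not depend on library scaling, and was taken from reads per kilobase. Across WT 1 to 5 its log2 value was -1.78, -0.67, -0.30, -0.52 and -0.69. Rbfox2 KO 1 to 3 showed -2.58, -1.22 and -0.98. Insig2 exceeded Insig1 per length in all 8 livers, least in WT 3 and most in Rbfox2 KO 1, and the groups overlapped through WT 1. The means were -0.79 ± 0.58 (SD, n = 5) and -1.59 ± 0.86 (SD, n = 3), a difference of -0.80 (exact permutation p = 0.161, two-sided, and 0.321 after Benjamini-Hochberg adjustment over 2 ratios). Without WT 1 the difference was -1.05 and the groups did not overlap, where 4 against 3 samples allow no exact permutation p below the 0.0286 found. Without Rbfox2 KO 1 it was -0.30 (exact permutation p = 0.571). With both left out it was -0.55, again without overlap, where 4 against 2 samples allow no exact permutation p below the 0.0667 found.

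**Figure D3:**
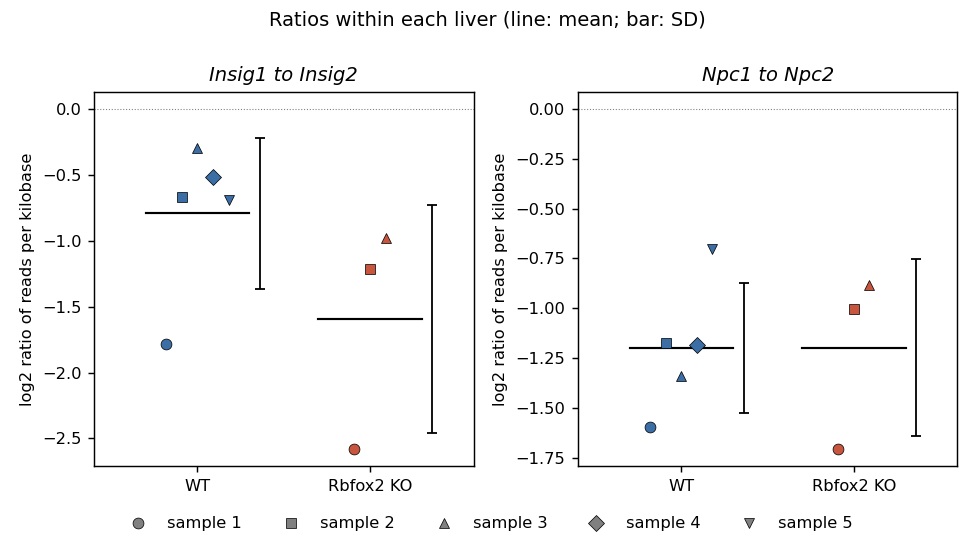
Log2 ratio of reads per kilobase in each liver for Insig1 to Insig2 (left) and Npc1 to Npc2 (right), with the group mean (line) and SD (bar). Sample 1 has the lowest ratio of its group in both panels, and apart from sample 1 the Insig1 to Insig2 ratio lies between -0.69 and -0.30 in WT and at -1.22 and -0.98 in Rbfox2 KO.

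Stard4 encodes a soluble carrier that moves cholesterol between membranes and is itself a target of SREBP2 (ENSMUSG00000024378, chromosome 18 from 33199355 to 33213862, minus strand). It was at 28.8, 45.7, 57.0, 56.6 and 47.6 CPM in WT 1 to 5 and at 18.3, 44.1 and 36.4 CPM in Rbfox2 KO 1 to 3. As for Insig1, the first sample of each group was lowest, and the 2 other Rbfox2 KO livers lay between WT 1 and the remaining WT livers. Rbfox2 KO averaged 69.9% of WT, at 32.9 ± 13.2 CPM (SD, n = 3) against 47.1 ± 11.5 CPM (SD, n = 5). The log2 fold change was -0.52 ± 0.30 (SE; unadjusted edgeR p = 0.12), with an interval from 43.5% to 112% of WT (exact permutation p = 0.143, two-sided). It was -0.23 without Rbfox2 KO 1 and -0.37 without both samples numbered 1, where the edgeR p was 0.0191 unadjusted and 0.98 adjusted.

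Npc1 and Npc2 encode the membrane protein and the soluble protein that hand cholesterol out of the lysosome. Npc1 (ENSMUSG00000024413, chromosome 18 from 12189692 to 12236400, minus strand) was at 48.2, 51.4, 48.6, 53.1 and 69.0 CPM in WT 1 to 5, and at 47.2, 59.2 and 62.5 CPM in Rbfox2 KO 1 to 3. WT 5 was highest and the groups overlapped. The means were 54.0 ± 8.59 CPM (SD, n = 5) and 56.3 ± 8.06 CPM (SD, n = 3), and the log2 fold change of 0.06 ± 0.14 (SE) spanned an interval from 83.9% to 129% of WT (exact permutation p = 0.732, two-sided). Npc1 shares 511 exonic bases, 4.52% of its exonic length, with Rmc1 on the opposite strand, which had 2849 counts in all, which leaves its count uncertain by that overlap.

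Npc2 (ENSMUSG00000021242, chromosome 12 from 84754562 to 84773152, minus strand) was at 69.9, 55.8, 59.2, 58.0 and 53.9 CPM in WT 1 to 5. It was at 74.1, 57.1 and 55.4 CPM in Rbfox2 KO 1 to 3. Here the samples numbered 1 were the highest of their groups. Means of 59.3 ± 6.23 CPM (SD, n = 5) and 62.2 ± 10.3 CPM (SD, n = 3) gave 0.07 ± 0.12 (SE) as the log2 fold change and an interval from 86.5% to 127% of WT (exact permutation p = 0.661, two-sided). Without Rbfox2 KO 1 it was -0.08. The log2 ratio of Npc1 to Npc2 per kilobase was -1.59, -1.17, -1.34, -1.19 and -0.70 across WT 1 to 5, and Rbfox2 KO 1 to 3 showed -1.71, -1.004 and -0.88. Npc2 transcripts exceeded those of Npc1 per length in every liver, and the group means were -1.20 ± 0.33 (SD, n = 5) and -1.20 ± 0.45 (SD, n = 3), a difference of 0.0017 (exact permutation p = 0.982, two-sided). Macrophages also make NPC2, and the 8 Kupffer cell and macrophage markers summed to 209.5 to 243 CPM in WT and to 283, 219 and 295 CPM in Rbfox2 KO 1 to 3. Of these markers 7 of 8 had a log2 fold change above 0, and 2 of 8 were higher at an unadjusted p under 0.05, against 2.41% of all tested genes. They were Marco, a scavenger receptor of macrophages, at 1.16 (10.7 ± 1.79 CPM in WT, n = 5, and 23.9 ± 6.39 CPM in Rbfox2 KO, n = 3, SD), where every Rbfox2 KO sample lay above every WT sample, and Cd5l, a secreted macrophage protein, at 0.44. The part of macrophages in the Npc2 level was not tested.

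Soat2 encodes the enzyme that esterifies cholesterol in hepatocytes and enterocytes (ENSMUSG00000023045, chromosome 15 from 102150526 to 102163469, plus strand). WT 1 to 5 had 24.2, 26.2, 28.9, 25.9 and 24.8 CPM, and Rbfox2 KO 1 to 3 had 24.6, 25.7 and 28.8 CPM. The Rbfox2 KO values lay inside a narrow WT range. Means were 26.0 ± 1.81 CPM (SD, n = 5) and 26.4 ± 2.20 CPM (SD, n = 3), with 0.02 ± 0.10 (SE) as the log2 fold change, an interval from 87.6% to 117% of WT and an exact permutation p of 0.839, two-sided.

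**Figure D4:**
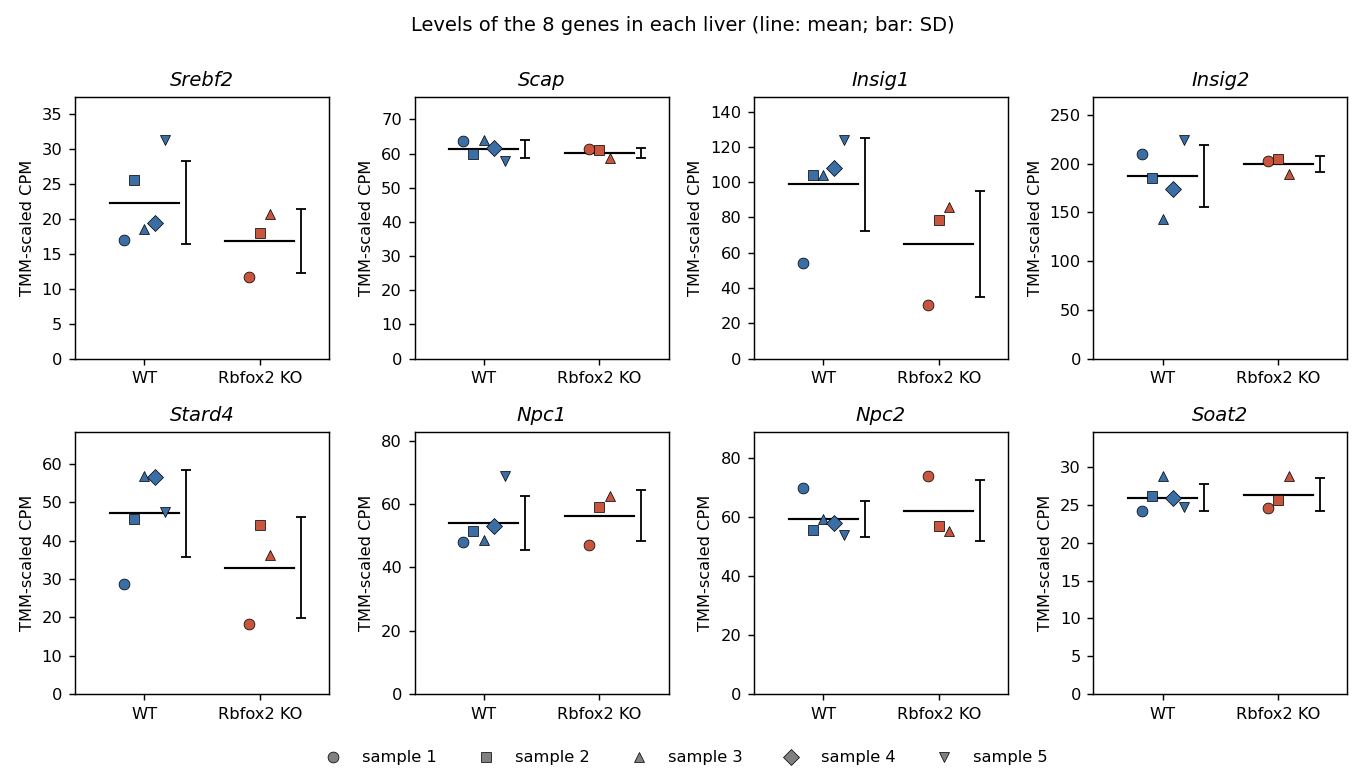
TMM-scaled CPM of each gene by liver, with one symbol per sample number, the group mean (line) and SD (bar), on axes that start at 0. Sample 1 is the lowest of its group for Srebf2, Insig1, Stard4, Npc1 and Soat2 and the highest for Npc2, while Scap and Soat2 vary little.

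Within each group, the samples numbered 1 stood away from the rest in Insig1, Stard4 and Npc2. For Srebf2 they were also the lowest, but WT 1 lay close to WT 3 and 4, and WT 5 was farther from the other WT livers. Npc1 and Soat2 were lowest in them too, with WT 1 close to WT 3 for Npc1 and to WT 5 for Soat2. Other lists were measured beside the samples numbered 1. The clock genes summed to 245 CPM in WT 1 and 265 CPM in Rbfox2 KO 1, the lowest of their groups, against 301 to 368 CPM in the other 6 livers. The list of 12 genes that respond to fasting summed to 11513 CPM in WT 1, within the WT range of 10228 to 11683 CPM, and to 7872 CPM in Rbfox2 KO 1, against 13886 and 14924 CPM in Rbfox2 KO 2 and 3. Pancreatic transcripts were highest in the same pair of samples, as given above. The part of feeding state, time of day or pancreatic RNA in these levels was not tested.

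Partners in SREBP processing and sterol sensing were examined next. Of 14 genes, 0 passed the edgeR adjusted threshold. At an unadjusted p under 0.05, 1 was lower and 0 were higher, against 2.33% and 2.41% of all tested genes. The median log2 fold change of the list was 0.01. The gene that was lower was Srebf1, which encodes the related factor SREBP1, whose mean was 38.5 ± 6.73 CPM in WT (SD, n = 5) and 27.2 ± 3.32 CPM in Rbfox2 KO livers (SD, n = 3). Every Rbfox2 KO value, of 24.1 to 30.8 CPM, lay below the WT range of 31.3 to 49.5 CPM, an order held by 1.82% of tested genes. The log2 fold change of Srebf1 was -0.50 ± 0.15 (SE; edgeR adjusted p = 0.809). Next by p were Erlin1, an ER membrane protein that takes part in sterol-regulated degradation, at 0.26 ± 0.13, and Syvn1, an ER ubiquitin ligase, at -0.34 ± 0.19. The 8 lipogenic targets of SREBP1c had 0 genes at an unadjusted p under 0.05, with a median of -0.15. Among them Fasn, the fatty acid synthase, had a log2 fold change of -0.46 ± 0.22 (SE), Acly, which makes cytosolic acetyl-CoA, 0.21 ± 0.10, and Acaca, which makes malonyl-CoA, -0.16 ± 0.12.

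In the sterol synthesis enzymes, a list of 20 SREBP2 targets, 0 passed the edgeR adjusted threshold and 15 were lower at an unadjusted p under 0.05, against the 2.33% of all tested genes given above. All 20 log2 fold changes were below 0, with a median of -0.52 against 0.00095 over all tested genes, and in 9 every Rbfox2 KO sample lay below every WT sample, against 1.82% of all tested genes. Insig1, Stard4 and Srebf2, with log2 fold changes of -0.61, -0.52 and -0.41, are also targets of SREBP2, and in each of the 3 the groups overlapped. Of 15 genes for lysosomal and cytosolic sterol transport, 0 passed the adjusted threshold, and the list median was 0.03. At an unadjusted p under 0.05, 2 were lower, against 2.33% of all tested genes. These were Tmem97, which binds NPC1, at -0.29 ± 0.12 (SE), and Osbpl5, a lipid transfer protein, at -0.63 ± 0.28. Osbpl5 was low, with means of 1.88 CPM in WT and 1.21 CPM in Rbfox2 KO, and the edgeR adjusted p of both genes was 0.99997. Next by p was Stard3, which tethers late endosomes to the ER, at 0.23 ± 0.12. It had 10.7 to 11.3 CPM in Rbfox2 KO above a WT range of 7.53 to 10.4 CPM, an order held by 1.89% of tested genes.

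For cholesterol uptake, 0 of 6 tested genes had an unadjusted p under 0.05, and the median was 0.01. Npc1l1, the intestinal cholesterol importer, had 0 counts in all 8 livers. The lowest p belonged to Vldlr, a lipoprotein receptor, at -0.50 ± 0.30 (SE), Lrp1, the remnant receptor, at -0.16 ± 0.12, and Mylip, a ubiquitin ligase of lipoprotein receptors, at 0.07 ± 0.19. Among genes that make or split cholesteryl esters, 0 of 4 tested had an unadjusted p under 0.05, with Lipe, a hormone-sensitive hydrolase, at -0.19 ± 0.14, Soat1, the widely expressed relative of Soat2, at 0.25 ± 0.19, and Nceh1, a neutral ester hydrolase, at -0.05 ± 0.18. Cel, a pancreatic ester lipase, was too low to be tested and had 11.8 CPM in Rbfox2 KO 1 against at most 0.222 CPM elsewhere. Among the marker lists of other cell types, 2 of 6 lymphocyte genes were lower at an unadjusted p under 0.05, against 2.33% of all tested genes. Lymphocyte sums were 9.66 CPM in WT 2, 7.78 CPM in WT 5 and 1.65 to 2.99 CPM in the other livers. Of 12 pancreatic genes 1 was tested, Cela1, and it was higher at that level, against 2.41% of all tested genes. Cela1 was at 27.2 CPM in Rbfox2 KO 1. In Rbfox2 KO 2 and 3 it was at 5.74 and 4.81 CPM, inside the WT range of 4.69 to 6.94 CPM. In the lists for hepatocytes, sinusoidal endothelial cells, stellate cells, cholangiocytes and small intestine, 0 genes were at that level.

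Whether the 8 genes followed the sterol enzymes from sample to sample was examined after the genotype means were removed, as the mean log2 CPM of the 20 enzymes against each gene. The samples numbered 1 lay apart from the other 6, with the lowest enzyme means of their groups, at 4.75 in WT and 4.05 in Rbfox2 KO, against 5.004 to 5.16 and 4.37 to 4.61. Over all 8 livers Pearson's r was 0.893 for Insig1 (Spearman's rho 0.548), 0.875 for Stard4 (0.595), 0.762 for Srebf2 (0.667) and -0.908 for Npc2 (-0.643). The exact permutation p of r within genotype was 0.0472, 0.0347, 0.0583 and 0.0222 in that order, and 0.117 for each after adjustment over 8 relations. For Spearman's rho it was 0.344, 0.228, 0.133 and 0.186. For Scap, Insig2, Npc1 and Soat2, r was -0.458, -0.109, 0.634 and 0.388, and rho -0.357, 0.0952, 0.595 and 0.405, with exact permutation p of at least 0.131 for r and 0.226 for rho. Scaling by library totals in place of TMM gave r of 0.617 for Insig1, 0.518 for Stard4, 0.848 for Srebf2 and 0.0215 for Npc2, so the direction for Npc2 turned with the scaling. Without both samples numbered 1, a choice made after the data were seen, r was -0.145, -0.00955, 0.313 and -0.225 for the same genes (exact permutation p = 0.646, 0.958, 0.458 and 0.604). They lay farthest from the median of the enzyme mean once genotype was removed. The planned omission took the pair farthest before that removal, Rbfox2 KO 1 and Rbfox2 KO 3. It kept WT 1, left Rbfox2 KO 2 as the only knockout sample, and gave r of 0.927, 0.735, 0.767 and -0.967 in the same order. Without WT 1 alone r was 0.833, 0.805, 0.702 and -0.855, and without Rbfox2 KO 1 alone 0.781, 0.745, 0.590 and -0.813. The exact permutation p of these was at least 0.0667. Of these omissions, only that of both samples numbered 1 brought r to the low values above.

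**Figure D5:**
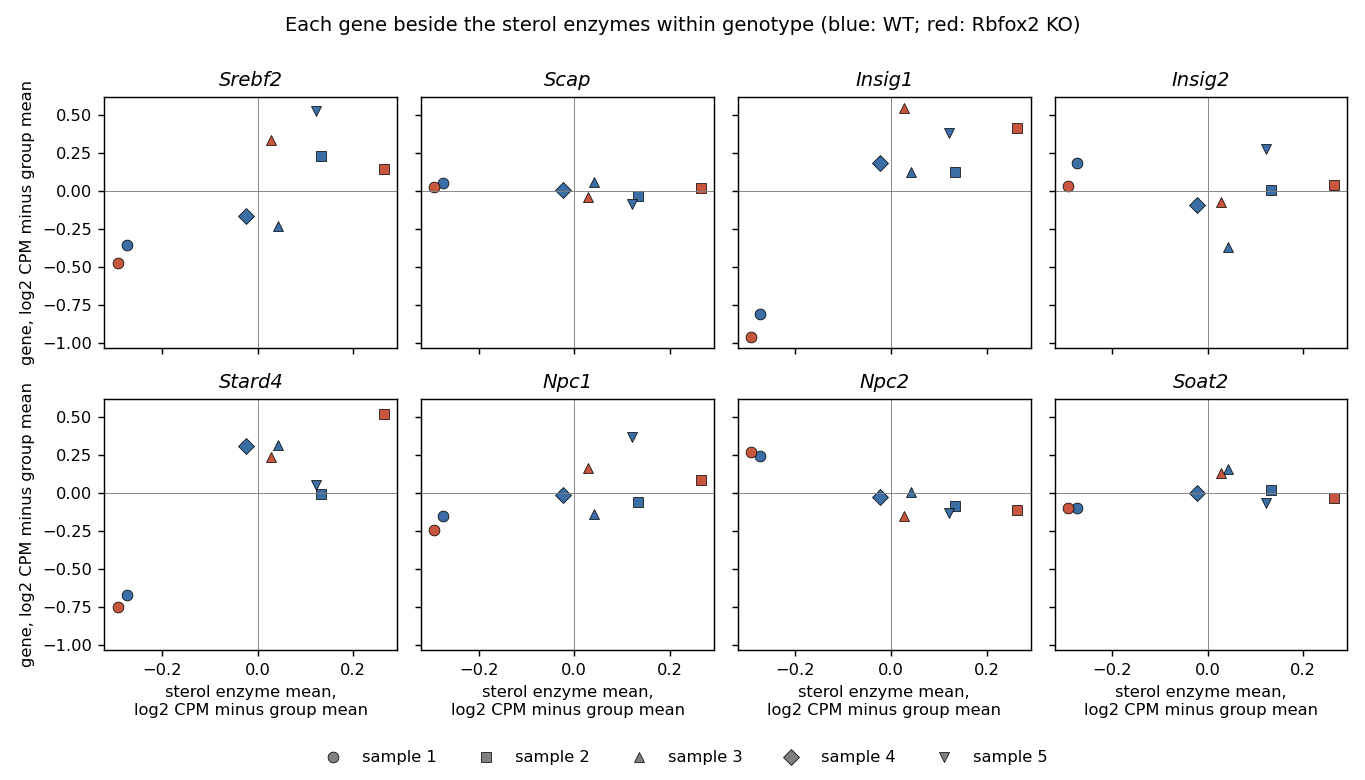
Log2 CPM of each gene (vertical) against the mean log2 CPM of the 20 sterol enzymes (horizontal), each minus its group mean, with one symbol per liver (blue, WT; red, Rbfox2 KO). The circles of sample 1 lie at the left of every panel, low for Insig1, Stard4 and Srebf2 and high for Npc2, and the other 6 livers show r of -0.145 for Insig1.

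Among the 8 genes themselves, Pearson's r of log2 CPM over the 8 livers was 0.948 between Insig1 and Stard4, 0.863 between Insig1 and Srebf2 and -0.918 between Insig1 and Npc2. That of Insig1 and Insig2 was -0.310. Over 14653 other tested genes, the closest to Srebf2 were Tnrc6b (r = 0.981), Prpf8 (0.977), Mcc (0.976), Xpo6 (0.972) and Chd6 (0.970). The closest to Insig1 were E330009J07Rik (0.989), Foxj3 (0.981), Mmgt1 (0.976), Ghr (0.975) and Tbccd1 (0.974). None of the sterol enzymes was among these 10. These correlations are descriptions over livers that share library preparation and scaling and include both samples numbered 1.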

How the data were processed

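Poly(A)-selected RNA from 8 livers was sequenced in paired ends. The authors demultiplexed reads with CASAVA, aligned them to GRCm38 with TopHat2 2.0.11 as strand-specific libraries, and deposited raw read counts per Ensembl gene from featureCounts. Use of strand in counting, and the treatment of reads with several alignments, were not given in the sources used here, so overlapping genes are uncertain. Groups and sample numbers came from the labels. Samples are called livers here after their labels. Nothing in the labels says that each sample is a different mouse, so p-values measure the spread between these samples, which may be technical. No 2 samples of a group agreed within sampling noise.

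Of 46078 genes, 45143 had a symbol in GENCODE M21, and 0 sample columns were left unmapped. Genes were filtered with filterByExpr of edgeR 4.0.16 in R 4.3.3 (14654 left), scaled by TMM factors and tested by quasi-likelihood F tests (robust option), genotype as the only term, with Benjamini-Hochberg adjustment over all tested genes at 0.05. Length was the union of exons. A difference of means was tested over the 56 assignments of 8 samples to groups of 5 and 3 (smallest exact permutation p 0.0179). Log2 CPM used a prior count of 2. A floor of 3 counts equals 0.0793 to 0.121 CPM and covers counting error only. Alternatives were other scalings and filters, DESeq2 1.42.0, limma-voom (limma 3.58.1), a block on sample number, and leaving out samples. Steps were tested on simulated data.

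The genes named were the 8 members, at most the 3 with the smallest p of each pathway list, and the 5 most like Srebf2 and Insig1. For the enzymes only the list is described. Rbfox2 was given as a check of the labels, and Npc1l1, Cel, Cela1, Marco, Cd5l, Mir33 and overlapping genes were added after their values were seen. The genes and lists were chosen with earlier results of these data known. Promoter windows came from RefSeq (GRCm38.p6).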

Additional observations from a re-analysis of the deposited data

Results flagged for a closer look

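In the 5 WT livers the gap between the lowest or highest sample and its neighbour was divided by the range for 10 values, and 3 passed the critical value for 5 samples. Chance alone passes about 1 in 20 groups. WT 1 was set apart at the low end for Insig1, where it had 54.3 CPM and the others 104 to 124 CPM (0.713 of the range lay between). The same liver was set apart in the log2 ratio of Insig1 to Insig2, where it had -1.78 and the others -0.69 to -0.30 (0.738 of the range). WT 5 was set apart at the high end for Npc1, where it had 69.0 CPM and the others 48.2 to 53.1 CPM (0.763 of the range).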

How the results depend on the processing

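The count of genes past the threshold, 0 of 8, was 0 in each of its 18 alternatives, which used edgeR, DESeq2 and limma-voom. Of all tested genes, 6 of 24449 passed an adjusted p of 0.05 without the filter on low counts, and 57 of 15360 by DESeq2. Every other refit called 0 of all genes at that threshold, so a count of 0 there does not set these 8 genes apart. The widest interval, that of Insig1, allows 36.9% to 117% of WT. Srebf2, Insig1 and Stard4 kept log2 fold changes below 0 and Insig2 one above 0 in all 16 alternatives run for each, from -0.59 to -0.21, -0.86 to -0.27, -0.78 to -0.23 and 0.01 to 0.19. Across fits without one sample, the log2 fold change ran from -0.0237 to 0.165 for Npc1, -0.0832 to 0.143 for Npc2 and -0.0500 to 0.0632 for Soat2, and the difference in ratio from -1.11 to -0.30 for Insig1 to Insig2 and from -0.16 to 0.26 for Npc1 to Npc2. Without both samples numbered 1, chosen after the data were seen, Npc2 was at -0.0188. By library totals Scap was at 0.10.

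Samples of equal number were not taken as pairs. Their deviations from group means correlated at 0.163, 0.0484 and 0.170 for numbers 1 to 3. With the number as a replicate block, 0 of 8 genes passed, Soat2 was at -0.0042, and Insig1 and Stard4 were at -0.50 and -0.45 (edgeR adjusted p = 0.715 and 0.852), both under 0.05 before adjustment. The block left 0 of all genes past the adjusted threshold, and its 739 genes under 0.05 before adjustment compare with 694 in the fit that lacks it. None of the samples numbered 1 to 3 correlated best with its own number in the other group. Rbfox2 KO 1, 2 and 3 were highest with WT 4, 3 and 2, at 0.248, 0.371 and 0.252.

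Of the correlations with the sterol enzymes, by library totals r was 0.848 for Srebf2, 0.28 for Scap, 0.617 for Insig1, 0.548 for Insig2, 0.518 for Stard4 and 0.0215 for Npc2. Without both samples numbered 1 it was -0.145 for Insig1, 0.473 for Insig2, -0.00955 for Stard4, -0.225 for Npc2 and -0.614 for Soat2. Without one sample it ran from 0.59 to 0.846 for Srebf2, 0.781 to 0.966 for Insig1, -0.349 to 0.172 for Insig2, 0.745 to 0.926 for Stard4 and -0.976 to -0.813 for Npc2. The cause was not tested.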
